A study of Homo sapiens with 12 samples.

Results

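Adding Corin to all-trans retinoic acid (ATRA) was examined in U-937, a human monocytic leukaemia cell line, by the H3K4me2 peaks present after both drugs and absent after ATRA alone, or the reverse. Peaks of the ATRA+Corin list and of the ATRA list that overlapped by at least 1 bp were merged into 82541 regions. A region with an ATRA+Corin peak only was called gained, and a region with an ATRA peak only was called lost. This gave 24349 gained and 4237 lost regions, together 28586, beside 53955 shared regions, while the lists of all 4 treatments merge into 84588 regions. Cells of the ATRA group received 0.1 µM ATRA for 24 hours, and cells of the ATRA+Corin group received 0.1 µM ATRA and 0.1 µM Corin for the same time. Cultures treated with 0.1 µM Corin alone or with the vehicle DMSO enter only as the same addition of Corin without ATRA. U-937 is a single line, and each treatment has 2 H3K4me2 libraries and 1 input library. The values used here are 1 pooled peak list per treatment, called with the input as control, so the spread between replicates is unknown and no p-value is given. Every difference is one between peak lists, and the intervals in brackets are 95% Wilson intervals that cover counting error only.

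H3K4me2 is the dimethylated form of lysine 4 of histone H3 and marks promoters and enhancers that are active or poised. LSD1 (KDM1A) removes methyl groups from this lysine and works with the histone deacetylases HDAC1 and HDAC2 in the CoREST complex, and Corin is a synthetic inhibitor of both activities of that complex. ATRA binds retinoic acid receptors, which exchange corepressors for coactivators such as p300 on their target genes, and it drives myeloid leukaemia cells toward maturation. In blood cells LSD1 is brought to many enhancers by the repressors GFI1 and GFI1B.

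The 300 bases around the summit are printed for 5 regions, which were chosen for strength, motif or location and are not typical of either set. A GFI1 match, for one, was present in only 3.89% of all gained regions. The 5 are the region gained with the highest −log10 q, an intragenic gained region and a gained region over a testis-restricted gene that hold matches to the GFI1 motif (AATCACTG or AATCACAG), the region lost with the highest −log10 q, and a lost region at a promoter. Sequences are from GRCh38, plus strand, and capitals mark every match on either strand to the motifs listed with the motif results. The PI16 window has none.

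Gained over the start of PI16, chr6:36954579-36954878: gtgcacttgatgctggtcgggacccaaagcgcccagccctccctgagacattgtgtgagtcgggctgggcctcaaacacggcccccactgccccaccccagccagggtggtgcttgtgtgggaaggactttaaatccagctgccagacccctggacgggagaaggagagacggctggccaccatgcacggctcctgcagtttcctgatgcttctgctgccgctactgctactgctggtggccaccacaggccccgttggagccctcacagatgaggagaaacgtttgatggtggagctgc

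Gained within PTGIS, chr20:49510855-49511154: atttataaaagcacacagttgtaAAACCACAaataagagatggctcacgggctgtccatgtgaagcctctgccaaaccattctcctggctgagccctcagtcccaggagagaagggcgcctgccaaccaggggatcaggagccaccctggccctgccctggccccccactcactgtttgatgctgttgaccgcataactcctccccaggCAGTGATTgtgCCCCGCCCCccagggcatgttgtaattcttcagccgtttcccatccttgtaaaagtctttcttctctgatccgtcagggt

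Gained within CTCFL, chr20:57503154-57503453: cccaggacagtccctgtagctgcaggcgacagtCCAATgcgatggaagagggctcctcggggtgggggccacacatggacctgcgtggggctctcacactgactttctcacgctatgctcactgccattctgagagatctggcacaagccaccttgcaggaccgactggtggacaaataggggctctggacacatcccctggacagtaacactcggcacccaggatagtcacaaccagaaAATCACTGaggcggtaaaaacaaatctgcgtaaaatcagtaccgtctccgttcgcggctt

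Lost over the start of SLC18B1, chr6:132798423-132798722: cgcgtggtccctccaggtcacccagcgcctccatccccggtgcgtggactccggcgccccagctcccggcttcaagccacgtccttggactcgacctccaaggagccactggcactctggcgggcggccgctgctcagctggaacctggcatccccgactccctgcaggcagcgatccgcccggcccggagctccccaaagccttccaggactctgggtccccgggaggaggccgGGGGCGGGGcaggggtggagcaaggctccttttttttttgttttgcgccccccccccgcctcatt

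Lost over a start site of CASP9, chr1:15524559-15524858: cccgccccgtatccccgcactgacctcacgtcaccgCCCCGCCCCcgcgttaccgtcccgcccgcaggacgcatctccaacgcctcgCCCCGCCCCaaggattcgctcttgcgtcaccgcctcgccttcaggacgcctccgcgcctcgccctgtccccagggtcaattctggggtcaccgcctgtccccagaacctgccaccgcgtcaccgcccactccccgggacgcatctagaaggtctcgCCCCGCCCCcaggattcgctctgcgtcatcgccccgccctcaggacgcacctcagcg

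GC content of these windows was 62.3% for PI16, 55.0% for PTGIS and 56.3% for CTCFL. It was 70.0% for SLC18B1 and 71.7% for CASP9. The lost windows held 23 and 37 CpG dinucleotides, and the gained windows 10, 6 and 13. Gained DNA was lower in GC than lost DNA in general, as the medians over 300 bp were 46.3% in gained, 49.7% in lost and 50.7% in shared regions. The printed windows all lay above the median of their set, and both lost windows lay above the 95th percentile of lost regions (65.0%).

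Gained regions made up 29.5% of the merged regions and lost regions 5.13%, so 5.75 regions were gained for each one lost. Both sets were weak and narrow. The median −log10 q, as given by the authors' peak caller, was 3.91 in gained regions and 4.05 in lost regions, compared with 29.6 for ATRA+Corin peaks in shared regions. The weakest gained region had a −log10 q of 0.559 and the weakest lost region one of 0.490, at the edge of what the lists hold. Peaks of −log10 q 5 or more made up 34.7% of the gained set (34.1 to 35.3%) and 33.9% of the lost set (32.5 to 35.4%), shares whose intervals met. Only 445 gained and 23 lost regions reached 20. The median width was 341 bp in gained, 291 bp in lost and 1412 bp in shared regions. Solving the deposited fold and p for whole fragments gave a median of 22 H3K4me2 fragments at gained summits and 19 at lost summits, against 71 at shared ones.

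**Figure D1:**
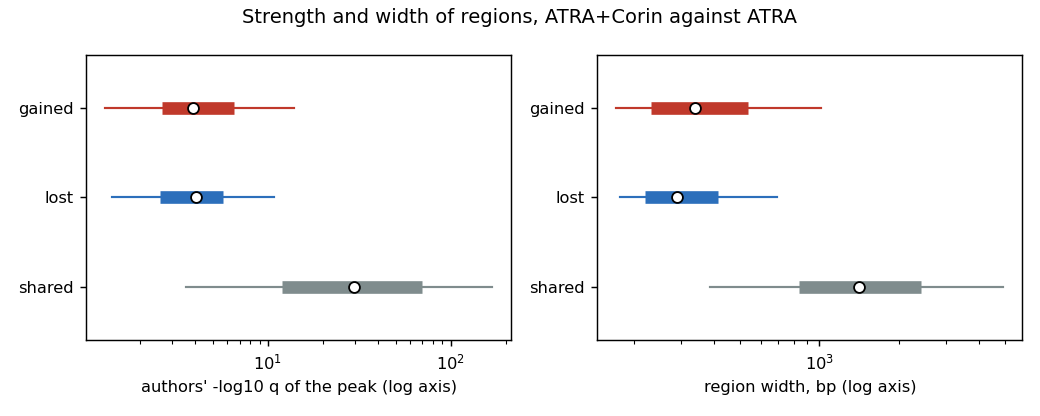
Strength (authors' −log10 q, log axis) and width (bp, log axis) of gained, lost and shared regions; circles are medians, thick bars the 25th to 75th and thin lines the 5th to 95th percentile of regions, with ATRA+Corin values used for shared and gained regions. Gained and lost regions lie together at medians of 3.91 and 4.05, below the shared median of 29.6.

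The lists differ in length and depth, and both move with the excess of gains. The ATRA+Corin list held 83969 peaks and the ATRA list 66385, and the H3K4me2 background with ATRA+Corin was 1.18 times that with ATRA. After the fragments were thinned to equal depth and peaks whose recomputed −log10 p was 5 or more were kept, 20961 regions were gained and 4528 lost, against 23124 and 4142 at the same limit without thinning. With the 66385 strongest peaks of each list, 11362 regions were gained and 7759 lost. The excess of gained over lost regions therefore went from 5.75 to 1.46 times when list lengths were made equal.

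Most DNA under the peaks of a single list lay in shared regions, and this held in both directions. ATRA+Corin peaks covered 30.8 Mb outside ATRA peaks, of which 10.7 Mb were gained regions and 20.1 Mb, or 65.3%, extended shared regions. ATRA peaks covered 5.96 Mb outside ATRA+Corin peaks, of which 1.46 Mb were lost regions and 4.50 Mb, or 75.5%, lay within shared regions. In 39919 of the shared regions (74.0%) the length under peaks was longer with ATRA+Corin, and in 13965 it was shorter. The covered length was at least 2 times as long with ATRA+Corin in 5006 shared regions and at least 2 times shorter in 816. Some gained regions stood apart: 27.5% (26.9 to 28.1%) lay over 10 kb from any ATRA peak, while 31.9% (31.4 to 32.5%) lay within 1 kb of one. Of the lost regions, 26.8% (25.5 to 28.1%) lay over 10 kb from any ATRA+Corin peak. Another 37.6% of them (36.2 to 39.1%) lay within 1 kb of one.

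Gained regions lay in introns more than anywhere else. Introns away from start sites held 59.4% of gained regions (58.8 to 60.04%), compared with 53.8% of lost (52.3 to 55.3%) and 34.9% of the shared regions (34.5 to 35.3%). A start site of a protein-coding or lncRNA gene lay within 1 kb of 5.16% of gained regions (4.89 to 5.44%) and 8.43% of lost ones (7.63 to 9.30%), against 32.8% of the shared regions. With a window of 2.5 kb both shares were 14.7%, and no difference was seen. Exons held 6.50% of gained and 8.69% of lost regions, and 28.9% and 29.1% lay outside genes. The ring from 1 to 5 kb around start sites held 23.3% of the gained regions (22.8 to 23.8%) but 15.7% of the lost (14.7 to 16.9%) and 11.5% of the shared regions (11.3 to 11.8%). The median distance to a start site was 12410 bp for gained and 16110 bp for lost regions.

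**Figure D2:**
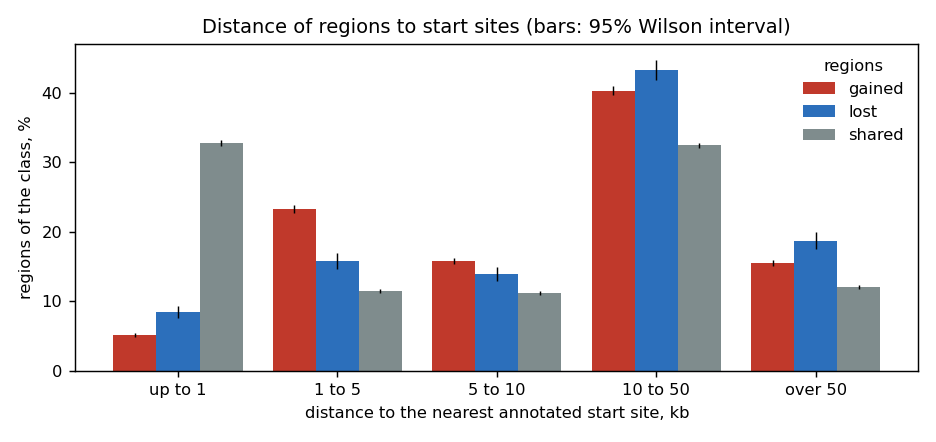
Share of gained, lost and shared regions (%) by distance to the nearest annotated start site (kb), with error bars for the 95% Wilson interval. Shared regions lead within 1 kb at 32.8%, and gained regions lead from 1 to 5 kb at 23.3%.

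Lost regions at start sites differed in base composition from those gained there. The 357 lost regions within 1 kb of a start site had a median GC content of 55.7% and a median of 8 CpG dinucleotides in 300 bp, compared with 48.3% and 3 in the 1256 gained regions there. Shared regions at start sites had 55.0% and 10. High GC there was therefore not particular to lost regions, and the gained ones were the set that lay apart. An ATRA+Corin peak lay within 500 bp of 36.7% of these lost regions, compared with 29.3% of the lost regions in introns and 27.8% of those outside genes. This rise at start sites was not particular to losses. An ATRA peak lay within 500 bp of 30.0% of gained regions at start sites and 20.5% of those in introns. For shared regions and the next shared region the shares were 45.0% and 20.3%. For 158 of the 357 no ATRA+Corin peak lay within 2 kb on either side, and 76 had such peaks on both sides. Start sites can also lose cover inside a shared region. Of 19959 protein-coding start sites, 2402 lay under an ATRA peak only and 397 under an ATRA+Corin peak only. Among the 2402, ATRA+Corin peaks flanked 2335 within 2 kb on both sides, so these starts lay between peaks, and 20 had no such peak on either side.

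The Corin and DMSO lists, which come from other libraries and were not used to choose the regions, show the same addition of Corin in cells without ATRA. Among gained regions, 7816 had a Corin peak and no DMSO peak, and 699 had the reverse, a ratio of 11.2. Among lost regions, 413 had a Corin peak and no DMSO peak and 874 the reverse, a ratio of 0.473. Shared regions lay between, with 4398 and 1702 and a ratio of 2.58. Expressed as shares, 36.2% of the gained regions without a DMSO peak held a Corin peak (35.5 to 36.8%), compared with 14.4% of such lost regions (13.2 to 15.8%). A DMSO peak was held by 26.3% of the lost regions without a Corin peak (24.8 to 27.8%), compared with 4.82% of such gained regions (4.49 to 5.18%). Shared regions without a DMSO peak held a Corin peak more often than gained ones, at 59.2%, and shared regions without a Corin peak held a DMSO peak at 35.9%.

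The shares were higher for stronger peaks. With a −log10 q under 5, 27.1% of the gained regions without a DMSO peak held a Corin peak (26.4 to 27.8%). Between 5 and 20 this share was 53.0% (51.8 to 54.2%), and at 20 or more it was 92.5% (89.1 to 94.9%, 297 of 321 regions). Shared regions, placed by their ATRA+Corin peak, had 37.5% (35.7 to 39.4%), 67.1% (65.7 to 68.5%) and 91.1% (88.6 to 93.05%) in the same order. At 20 or more the gained and shared intervals met, so the high share there is not particular to gained regions. For lost regions without a Corin peak, a DMSO peak was held by 20.5% (18.9 to 22.3%) under 5 and by 38.4% (35.5 to 41.4%) between 5 and 20. Only 12 such lost regions reached 20, and 9 of them held a DMSO peak. The DMSO shares of shared regions were 32.9% under 5 and 38.8% from 5 to 20 (36.9 to 40.8%), and in the latter class the lost and shared intervals met. Neither a Corin nor a DMSO peak was present in 13797 of the gained regions and 2450 of the lost regions. Among gained regions over 1 kb from a start site, those with neither peak had a median −log10 q of 3.44 and a median width of 293 bp, and those with a Corin peak but no DMSO peak had 4.99 and 435 bp.

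**Figure D3:**
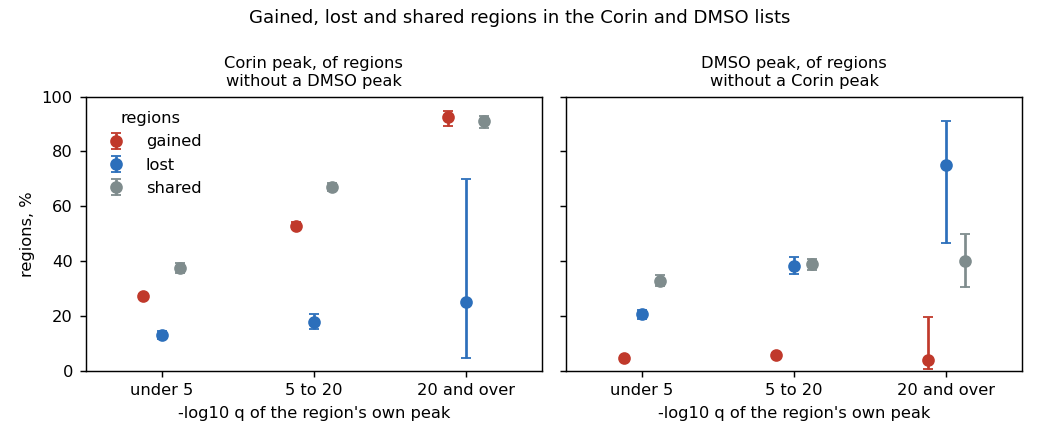
Share (%) of gained, lost and shared regions that hold a Corin peak when no DMSO peak is present (left) and a DMSO peak when no Corin peak is present (right), by the authors' −log10 q of the region's own peak (the ATRA+Corin peak for shared regions); bars are 95% Wilson intervals. On the left, gained and shared regions reach 92.5% and 91.1% at 20 and over, and on the right gained regions are lowest in each class, at 4.53%, 5.79% and 4.0%.

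All of the 10 gained regions with the highest −log10 q held a Corin peak, and 8 of them held no DMSO peak. PI16, which encodes a secreted peptidase inhibitor, had the strongest one, on chromosome 6 from 36953445 to 36957841 over its start site, 4397 bp wide with a fold of 32.9 and a −log10 q of 185. The next overlapped an exon of PTGIS, the prostacyclin synthase gene, on chromosome 20 (49510516 to 49511320) with a −log10 q of 128, and it had a weak DMSO peak (−log10 q 5.72). An intron of PPARD, which encodes a fatty acid-activated nuclear receptor, held a region on chromosome 6 at 35347518 to 35349337, 4904 bp from a start site, with a −log10 q of 92.7. CRTC3, a coactivator of CREB, had a region over an exon on chromosome 15 from 90637654 to 90639052 (−log10 q 92.6). An intron of ITGA6, an integrin subunit for laminin, held one on chromosome 2 from 172441689 to 172443239 with a −log10 q of 86.1, although its fold was only 5.59. CTCFL, a germline paralogue of the insulator protein CTCF, had one on chromosome 20 from 57502674 to 57503822 (−log10 q 85.6). The remaining strong gains were in or beside SBNO2, MAP3K20, MEAK7 and BCL10.

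A canonical protein-coding start site lay within 1 kb of 340 gained regions, given to 316 genes (1.58% of 19959), and of 140 lost regions, given to 138 genes (0.691%). After PI16, the strongest were 69 bp from a start site of RDH13, which encodes a mitochondrial retinol dehydrogenase family member, with a −log10 q of 43.5, and 228 bp from that of NCKAP1L, the blood-cell subunit of the actin-regulating WAVE complex, with 37.0. VNN2, a pantetheinase on the surface of myeloid cells, gained a region over its start on chromosome 6 from 132757439 to 132758456 with a −log10 q of 33.4. SLAMF7, a receptor of lymphoid and myeloid cells, gained one on chromosome 1 from 160738873 to 160740252 with a −log10 q of 27.4. CD300E, an activating receptor of monocytes, gained one on chromosome 17 from 74622562 to 74623739 with a −log10 q of 25.7. PI16, VNN2, SLAMF7 and CD300E had a Corin peak and no DMSO peak, whereas RDH13, NCKAP1L, PTK2 and CA4 had both. The carbonic anhydrase gene CA4 had a −log10 q of 25.7 as well, and LMTK2 and LENEP each had 25.4. A region within PTK2, 340 bp from a start site and with a −log10 q of 32.8, completed the 10. Of these 10 regions, 4 lay within 500 bp of an ATRA peak. They were those at CD300E (120 bp), RDH13 (157 bp), LMTK2 (164 bp) and NCKAP1L (242 bp). Among the 10 strongest lost regions at such start sites, 5 lay that close to an ATRA+Corin peak.

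The strongest loss stood far above the others. SLC18B1, which encodes a vesicular polyamine transporter, had an ATRA peak on chromosome 6 from 132797974 to 132799224 over its start, with a fold of 59.3, a −log10 q of 273 and 264 fragments at the summit, and no ATRA+Corin peak within 13025 bp. It had a DMSO peak with a −log10 q of 126.5 and no Corin peak, so it was present in both lists without Corin and in neither list with it. The gained region over VNN2 ends 39517 bp before it on the same chromosome. The next lost region had a −log10 q of 42.1, and 9 of the 10 strongest lost regions held a DMSO peak while 5 held a Corin peak. Peaks are numbered by p in the lists, and 17 of the 30000 lowest numbers are not in the ATRA+Corin list used here and 16 are not in the ATRA list. Their positions are unknown.

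Many other strong losses were narrow and close to a remaining peak or to duplicated genes. Of the 10 strongest, 5 were under 300 bp wide and 4 lay within 500 bp of an ATRA+Corin peak. CASP9, the initiator caspase of mitochondrial apoptosis, lost a region on chromosome 1 from 15524542 to 15524961 (−log10 q 32.7) that lay 123 bp from an ATRA+Corin peak. HTATSF1, a transcription and splicing factor, lost one of 240 bp on chromosome X from 136496934 to 136497173 (−log10 q 29.5) 111 bp from such a peak. BAP1, a deubiquitinase of histone H2A, lost one on chromosome 3 from 52410127 to 52410405 (−log10 q 19.9) 107 bp from one, and NRL lost one 218 bp from one. NOTCH2NLA (−log10 q 34.2) and NBPF15 (31.7), both on chromosome 1, also lost regions over or beside their starts, but they belong to families of near-identical copies where reads can be placed at more than 1 gene, so these calls are uncertain. The same holds for the region near SPDYE8 on chromosome 7 and the one beside SLC35E2B. A region 22093 bp from a start site of ATXN1 had a −log10 q of 38.1 and lay 139 bp from an ATRA+Corin peak. GRIN2A, a subunit of the NMDA receptor, and SMIM5 lost regions at start sites (−log10 q 20.8 and 25.2) that had no ATRA+Corin peak within 61291 and 12082 bp. A region over an exon of STEAP3, a metalloreductase of iron uptake, on chromosome 2 from 119263788 to 119264949 (−log10 q 27.6) had neither a DMSO nor a Corin peak. Regions near PDCD6IP (34.8) and LINC02375 (26.7) completed the 10.

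Gains were spread over many genes. Each region was given to the protein-coding gene with the nearest canonical start site within 100 kb, which placed 19779 gained and 3153 lost regions. A region given to a gene in this way can lie within another gene. At least 1 gained region was given to 8646 genes (43.3%) and at least 1 lost region to 2551 (12.8%). More gained than lost regions were counted at 39.9% of the genes and more lost than gained at 5.07%. A net gain of at least 3 regions was reached by 11.3% of the genes, and a net loss of that size by 0.185%. The 887 genes with 5 or more gained regions held 30.7% of those placed, and their median length was 70.2 kb against 27.5 kb for all genes. Long genes had a gained region more often: 28.3% of genes under 10 kb had one, compared with 56.05% of those from 50 to 200 kb.

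FNDC3B, which encodes a membrane protein with fibronectin domains, had the most gained regions, 31, with 0 lost and 19 shared (gene on chromosome 3 from 172039578 to 172401669, plus strand). MBNL1, an RNA-binding regulator of splicing, had 24, RCSD1, a regulator of actin capping in blood cells, had 21, and PREX1, a Rac activator of phagocytes, had 20. SMAD3, which carries TGF-beta signals, had 19. CDC42EP3, MGLL and JARID2 had 18 each, APLP2 had 17, and the cytokine gene TNFSF8 had 16. In the same count for Corin against DMSO, which uses none of the same libraries, FNDC3B gained 33 regions, MBNL1 28, CDC42EP3 15, JARID2 15 and TNFSF8 15. RCSD1 gained only 2 in that comparison, MGLL 5, APLP2 8, SMAD3 9 and PREX1 11. The genes with most lost regions were GOLGA8M with 6 lost and 5 gained, NKD2 with 6 lost and 0 gained, HIC1 with 6 lost and 8 gained, RTL5 with 5 lost and 11 gained, and NUTM2D with 4 lost and 1 gained. GOLGA8M and NUTM2D belong to near-identical gene families, so their counts are uncertain. NKD2, an inhibitor of Wnt signalling, lost 3 and gained 0 regions with Corin against DMSO.

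**Figure D4:**
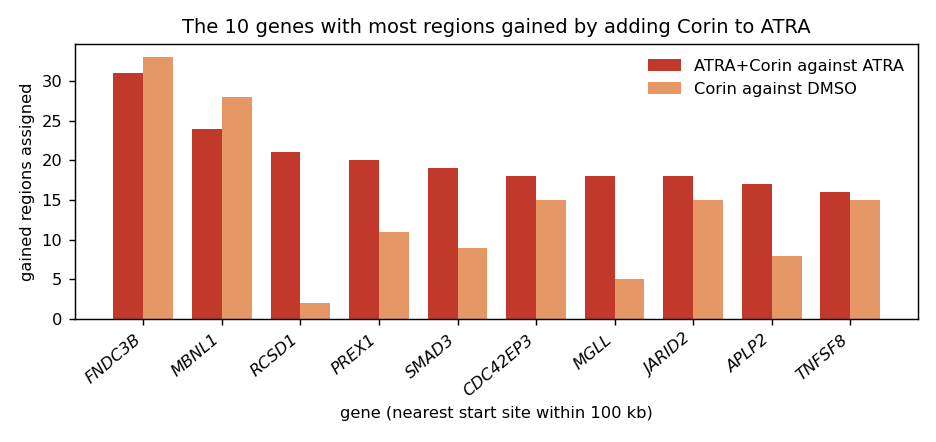
Number of gained regions given to the 10 genes with most of them, for ATRA+Corin against ATRA (dark bars) and for Corin against DMSO (light bars). FNDC3B, MBNL1 and TNFSF8 have like numbers in both, whereas RCSD1 has 21 and 2.

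Most genes of myeloid differentiation had a gained region. Of the 22 on the list, 19 had at least 1 gained region (86.4%, against 43.3% of all genes) and 6 had a lost one (12.8% of all genes), and the median net gain was 2 regions against 0. These genes also had more regions to begin with, with a median of 5 shared regions against 1 over all genes. Gained regions per shared region were 0.569 in the list and 0.436 over all genes. A gained region with a −log10 q of at least 5 was held by 15 of the 22, compared with 23.0% of all genes. CEBPB, a transcription factor of late myeloid maturation, had 10 gained and 0 lost regions. The gained ones lay 7345 to 94468 bp from its start site, some of them within the lncRNA gene PELATON. CD86, a costimulatory ligand, had 6 gained, and the lysozyme gene LYZ had 5. IRF8, a monocyte lineage factor, had 5 gained and 1 lost, one gained region lying 985 bp from its start site (−log10 q 4.20). CSF3R, SPI1 and CYBB had 3, 4 and 4 gained, and CYBB also had 1 lost. SPI1, which encodes the master regulator PU.1, had the strongest gained region of the list, within the gene on chromosome 11 from 47369184 to 47371607, with a fold of 14.9 and a −log10 q of 39.7. Its Corin peak had a −log10 q of 3.62 and it had no DMSO peak. ELANE, the neutrophil elastase gene, had 0 gained and 2 lost regions, and CD14 lost a weak region 583 bp from its start site (−log10 q 2.45) while gaining 3 elsewhere. The list gained 66 and lost 8 regions in all, and with Corin against DMSO it gained 59 and lost 15. All genes together gained 19779 and lost 3153 regions, and with Corin against DMSO they gained 15708 and lost 4583.

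Retinoid genes gained regions mainly at a few members. Of 18 genes, 11 had at least 1 gained region (61.1%, against 43.3% of all genes) and 3 had a lost one (16.7% against 12.8%). The median net gain was 1, and the median number of shared regions was 3 against 1 over all genes. Only 4 of the 18 (22.2%) had a gained region with a −log10 q of at least 5, near the 23.0% of all genes. TGM2, transglutaminase 2 and a direct retinoic acid target, had 14 gained, 4 lost and 10 shared regions. Its strongest lost region had a −log10 q of 9.16, above the 8.53 of its strongest gained one. None of its gained or lost regions held a Corin or a DMSO peak, so its gains with Corin against DMSO lay elsewhere. DHRS3, which reduces retinal to retinol, had 9 gained and 1 lost, and the lost one, 92059 bp from its start site, was the strongest of these regions (−log10 q 12.6). HIC1, a transcriptional repressor, had 8 gained and 6 lost, and the receptor gene RXRA had 5 gained and 0 lost. RARA, which encodes retinoic acid receptor alpha, had 2 gained regions, the stronger within the gene on chromosome 17 from 40314132 to 40315048 (−log10 q 16.5) and the other over its start site (−log10 q 3.10). CYP26A1, the retinoic acid hydroxylase, had 1, and RARG, RXRB and CRABP2 had 0 gained and 0 lost. With Corin against DMSO TGM2 gained 5 regions and DHRS3 gained 1, and the list gained 20 and lost 8, compared with 46 and 11 when ATRA was present in both groups. Over all genes the counts were 15708 gained and 4583 lost without ATRA.

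Of 14 genes of the CoREST complex and its partners, 11 had a gained region (78.6%, against 43.3% of all genes) and 3 a lost one (21.4% against 12.8%), and 6 had a gained region with a −log10 q of at least 5 (42.9% against 23.0%). The median net gain was 2 regions. These genes were longer than most, with a median of 71.3 kb against 27.5 kb, and had a median of 3 shared regions against 1. The GFI1 gene had 8 gained and 14 shared regions, the strongest gained one on chromosome 1 from 92470072 to 92472026, 14899 bp from the start site, with a −log10 q of 14.4 against 39.7 for its Corin peak. GFI1 gained 16 regions with Corin against DMSO. RCOR1, the CoREST scaffold, and CREBBP, the p300 paralogue, had 5 gained each, and PHF21A had 3. KDM1A itself had 0 gained and 2 lost regions, and HMG20B and RCOR2 had 0 of either. Among 10 leukaemia stem and progenitor genes, 8 had a gained region (80.0% against 43.3% of all genes) and 4 a lost one (against 12.8% of all genes). Their median net gain was 1, with a median of 5 shared regions against 1 over all genes. They had 0.343 gained regions per shared region, below the 0.436 of all genes. MYB had 6 gained and MEIS1 4, both with 0 lost, whereas KIT had 3 of each. BMI1, a Polycomb component, had 4 gained and 2 lost, one of them 233 bp from its start site (−log10 q 10.1), and this region had a DMSO peak and no Corin peak.

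Of 13 genes of antigen presentation and costimulation, 8 had a gained region (61.5% against 43.3% of all genes) and 7 had one of −log10 q 5 or more (53.8% against 23.0%). CD40, a costimulatory receptor, had 6 gained regions, one of them 719 bp from its start site on chromosome 20 from 46119033 to 46119602 (−log10 q 16.3). Only 2 gained regions lay within 50 kb of the CD40 start site, and the farthest lay 85809 bp away within CDH22. HLA-DRA, a class II chain, gained a region over its start (−log10 q 8.84), and HLA-DPA1 had 4 gained and B2M 3. CD80 lost a region 118 bp from its start (−log10 q 4.21), and CD274 gained one 924 bp from its start (4.20). Among 12 interferon response genes 7 had a gained region (58.3%), among them OAS1 with 5, and IRF7, IRF9, STAT2 and GBP2 had 0 gained and 0 lost. Among 12 cytokine and chemokine genes 8 had a gained region (66.7%, against the same 43.3%), and TNF had 0 of either. CXCR4 had 9 gained regions, CCL2 6 and CXCL8 4. This list had a median of 5.5 shared regions against 1 over all genes. Gained regions per shared region were 0.346 in it and 0.417 in the interferon list, both below the 0.436 of all genes. In the antigen presentation list the value was 0.889.

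Lists of other lineages and of housekeeping genes had shares from 16.7% to 50.0%, of which only that of the lymphocyte list lay above the 43.3% of all genes. The ribosomal, erythroid and megakaryocyte, and lymphocyte genes were short, with medians of 4.53, 7.45 and 9.41 kb against 27.5 kb. Of all genes under 10 kb only 28.3% had a gained region, so 43.3% is a high reference for these short lists. The neuronal and the epithelial and fibroblast genes were longer than most, with medians of 47.95 and 40.2 kb. Gained regions were present at 2 of 12 neuronal genes known as targets of REST and CoREST (16.7%), each with 1 gained and 1 lost, so the median net gain was 0. They were present at 3 of 12 ribosomal protein genes, 3 of 10 erythroid and megakaryocyte genes, 5 of 10 T and B lymphocyte genes and 3 of 8 epithelial and fibroblast genes. Of these, CD2 had a net gain of 3 regions, and ITGA2B and EPCAM had 1 and 5 gained regions, EPCAM with 1 lost as well. The gained ones of EPCAM lay 34162 to 73700 bp from its start site, within the lncRNA gene EPCAM-DT. The line's myeloid identity was visible in both lists: 8 of 9 marker genes, among them SPI1, CD33, LYZ and CSF1R, had a shared region within 1 kb of the start site, and MPO was the nearest gene to none, with 1 lost and 2 shared regions within 50 kb of its start site. Over all genes 58.2% had a region of either list there, compared with 4 of 10 lymphocyte, 2 of 10 erythroid and megakaryocyte and 1 of 8 epithelial and fibroblast genes. Peaks at a start site do not measure expression.

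**Figure D5:**
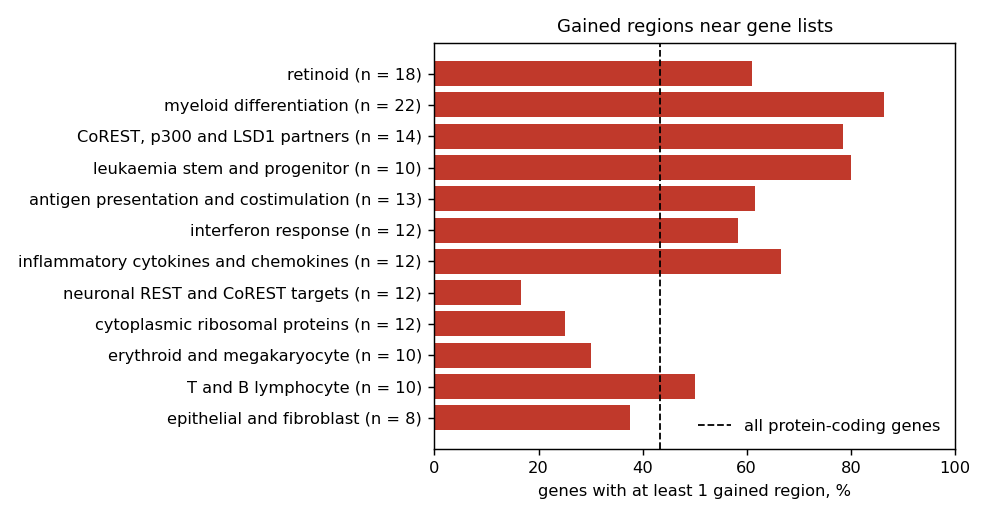
Share of genes (%) with at least 1 gained region for each gene list, with the number of genes in brackets and the share of all protein-coding genes as a dashed line. Myeloid differentiation is highest at 86.4%, and the neuronal list is lowest at 16.7%, below the line at 43.3%.

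Motifs were counted, on both strands, in the 300 bp around the summit of regions over 1 kb from a start site. A GFI1 motif was present in 3.86% of the 23093 gained regions (3.62 to 4.12%), 2.70% of the shared (2.54 to 2.87%) and 2.06% of the lost regions (1.66 to 2.56%), and in 2.38% of RefSeq promoters of the same length. In windows of 100 bp the gained and shared shares were 1.10% (0.969 to 1.24%) and 0.904% (0.812 to 1.01%), with intervals that met. Among regions of 40 to 50% GC the shares in 300 bp were 4.29% gained, 3.33% shared and 2.79% lost, and the lost interval (2.09 to 3.72%) met that of the shared regions. Gained regions with a Corin peak and no DMSO peak held it in 4.59% (4.13 to 5.09%), and those with neither peak in 3.57% (3.26 to 3.90%). The AP-1 motif TGANTCA was present in 11.6% of the gained, 11.1% of the shared and 8.22% of the lost regions. A CEBP match (TTGCNNAA) was present in 18.2%, 17.7% and 15.2% in the same order, a RUNX match (TGTGGTTT or TGCGGTTT) in 3.62%, 3.91% and 3.51%, and an ETS match (GAGGAAGT) in 4.47%, 4.09% and 4.23%. In this window, over all GC contents, the gained and shared intervals met for each of these 4 motifs, but the order changed with the setting. In regions of 40 to 50% GC the CEBP share was 19.4% in gained (18.6 to 20.1%), 21.4% in shared (20.7 to 22.02%) and 18.4% in lost regions (16.5 to 20.3%), and the ETS share was 4.87% in gained (4.48 to 5.29%) and 4.07% in shared regions (3.76 to 4.39%). RefSeq promoters held these 4 motifs in 7.71%, 10.5%, 1.94% and 2.59%.

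Pairs of hexamers bound by retinoic acid receptors (AGGTCA or AGTTCA, in the same direction, with 5, 2 or 1 bases between) were present in 2.19% of the gained (2.01 to 2.38%), 1.63% of the shared (1.501 to 1.76%) and 1.44% of the lost regions (1.11 to 1.87%), and in 0.0740% of RefSeq promoters. Nearly all had 2 bases between: 487 gained regions had such a pair, 14 had one with 5 bases between and 6 one with 1. Interspersed repeats, which can carry such pairs, were not separated. The GC box GGGGCGGGG was present in 0.624% of gained, 0.619% of lost and 1.28% of the shared regions, and in 15.7% of RefSeq promoters. The other motifs searched were CRE (TGACGTCA), IRF (a pair of GAAA in the same direction with 2 bases between), the site AGATAAG of GATA1 and its relatives, NRF1 (GCATGCGC), the CCAAT box and the E-box (CACGTG). Their shares in gained regions were 0.121%, 5.51%, 3.74%, 0.914%, 32.8% and 3.21%, and in shared regions 0.157%, 5.28%, 3.38%, 0.838%, 30.2% and 4.18%. A match is a string of letters and not evidence of binding.

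Gained regions were found on all 23 chromosomes of the lists. They made up from 23.8% of the merged regions on chromosome 21 to 32.7% on chromosomes 3 and 18. Lost regions ranged from 2.96% on chromosome 19 to 7.96% on chromosome 21, so gains outnumbered losses 8.50 times on chromosome 19 and 2.99 times on chromosome 21.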

How the data were processed

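H3K4me2 libraries were made by chromatin immunoprecipitation and read as 75 bp pairs, and groups came from the sample titles. Per the submitters' processing notes, Trimmomatic, Bowtie2, Picard, MACS2 and hg38 were used; versions and thresholds are not given in the sources used here. Each deposited list holds overlap-reproducible peaks of a treatment's libraries against its input, per the file names. The authors' score is 10 times the −log10 p, capped at 1000. The deposited fold is the ratio of H3K4me2 to scaled input at the summit, from the authors' peak caller. Their −log10 values of p and q came from that caller and were used as deposited. The remaining deposited value is the summit offset.

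Peaks were merged on overlap of 1 bp (bedtools 2.31.1 for lengths, otherwise pandas 2.3.3 and scipy 1.17.1). All peaks ended within GRCh38 chromosomes. Start sites came from GENCODE release 44 (basic transcripts, 38726 genes that code for protein or lncRNA), and 19959 protein-coding genes had a canonical start site. Fragments at summits were solved from fold and −log10 p within 0.001, with a pseudocount of 1, for 100% of the peaks of both lists; the lowest background gave relative depth. Depth per library is unknown. The procedures were tested on simulated data. Sequences came from GRCh38, promoters from 250 bp before to 50 bp after RefSeq starts.

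The regions named are the 10 gained and 10 lost with the highest −log10 q, overall and at protein-coding start sites. The genes named are the 10 with most gained and the 5 with most lost regions, and list members with a net change of 3 or more or a change at the start site. The rule also allows list members with no gained and no lost region. CYP26A1, ELANE, KDM1A and KIT fall outside this rule and were chosen after their values were seen. Some genes that meet the rule are not reported here. The rule, the members and the gene lists were chosen with earlier results of these data known. No test was run, since there is 1 list per treatment.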

Additional observations from a re-analysis of the deposited data

How the results depend on the processing

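No paired analysis was possible because each treatment has 1 pooled peak list and no values per replicate; for the same reason no replicate could be left out. The excess of gained over lost regions kept its direction under each alternative run, from 1.46 to 6.27 times, and single peaks gave the same counts by construction. Settings that leave the ATRA+Corin list longer favour gains by construction. Cutting both lists to equal length, which gave the 1.46, pulls the 2 counts together. The kept direction therefore carries little weight. With a −log10 q of at least 5 in all lists, 12237 regions were gained and 4068 lost, 5.73% of the gained regions lay within 1 kb of a start site, 38.9% of the gained regions without a DMSO peak held a Corin peak, and 22.9% of the lost regions without a Corin peak held a DMSO peak. With both lists cut to the length of the shorter, 11362 were gained and 7759 lost, the shares at start sites were 5.69% and 7.33%, and 5590 genes had a gained and 4021 a lost region. With all 4 lists cut to the shortest, the shares with a Corin peak and with a DMSO peak were 41.2% and 32.1%. Requiring a −log10 q of at least 5 only on the side with the peak left 8451 gained and 1438 lost regions, and merging peaks within 1 kb left 12518 and 2484. A window of 2.5 kb put 14.7% of both gained and lost regions near a start site, so the difference between them was not seen there, and protein-coding start sites alone gave 2.63% and 4.93%. Counting any start site within 50 kb, 3995 genes had a lost region, and with the nearest within 10 kb, 4867 had a gained and 756 a lost one. Requiring no peak of the other list within 1 kb, an alternative chosen after the data were seen, left 2642 lost regions, start site shares of 4.45% for gained and 7.34% for lost regions, and a share with a Corin peak of 34.9%. Motif shares followed the window length: for GFI1 they were 1.10% in gained and 0.904% in shared regions in 100 bp, where the intervals met (at 40 to 50% GC 1.26% and 1.21%), and 6.53% and 4.65% in 500 bp. Over all GC contents, AP-1 and CEBP in 100 bp were higher in gained than in shared regions (3.11% and 2.63%, 5.35% and 4.71%). In 500 bp CEBP, RUNX and ETS were lower in gained than in shared regions (29.6% and 30.9%, 6.51% and 7.81%, 8.17% and 8.96%), so no direction is given for these motifs. The cause of these differences was not tested beyond what fewer peaks or a wider window give by construction.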
